A study of Mus musculus with 9 samples.

Results

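The 76 genes described here carry the symbols of mitochondrial ribosomal proteins. By known structure 50 encode proteins of the large subunit of the mitochondrial ribosome and 25 of the small subunit, and Mrps36 encodes a subunit of another complex. The genes were chosen as the protein-coding rows of the count tables whose mouse symbol begins with Mrpl or Mrps followed by a number, with at least 10 raw counts summed over the 9 libraries. Of 54838 rows, 78 protein-coding symbols match the pattern. Mrpl53 and Mrps34 had no count in any library, which leaves 48 Mrpl and 28 Mrps genes. Symbols of 5 processed pseudogenes also match and are not members.

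RNA was taken from ears of C57BL/6 mice aged 10 weeks and read by 3' tag RNA-Seq, which samples each transcript near its 3' end. Mdl-1-/- mice given interleukin 23 (IL-23) minicircle DNA made up 3 libraries, wild-type mice given the same DNA 3 more, and wild-type mice given a minicircle for green fluorescent protein (GFP) the last 3. A minicircle is a DNA ring freed of plasmid backbone, from which the liver makes the protein after hydrodynamic tail vein delivery of 15 µg. The study asked how MDL-1, a myeloid receptor encoded by Clec5a, shapes IL-23-induced skin inflammation. No Mdl-1-/- ears with GFP DNA are among the libraries, so a genotype difference present without IL-23 and a different response to IL-23 cannot be told apart. The labels number the libraries 1 to 3 within a group and do not say that each came from its own animal. The p-values therefore cover only how these libraries vary, which may be technical variation.

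The mitochondrial ribosome translates the few messenger RNAs encoded in mitochondrial DNA, all of which code for subunits of the respiratory chain and ATP synthase. Its proteins are encoded in the nucleus, made in the cytosol and imported. It has a large subunit, which joins amino acids and releases the nascent chain at the inner membrane, and a small subunit, which reads the messenger RNA. Many of its proteins have bacterial homologues, while others are specific to mitochondria and surround a shortened ribosomal RNA core. In the epidermis, a working respiratory chain is known to be needed for normal keratinocyte differentiation.

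Libraries held 3776188 to 5605713 counts. Clec5a was read in each of them, with 10, 13 and 5 counts in Mdl-1-/- IL-23 ears, 17, 21 and 11 in wild-type IL-23 ears, and 2, 7 and 10 in wild-type GFP ears. The deleted part of Clec5a is not given in the sources used here, so these tags may fall outside it and are no check of the genotype; groups are named as labelled. Basal keratinocyte markers were read in all 3 groups, with summed levels of 7871 to 10500 CPM (counts scaled to a library of 1000000) in Mdl-1-/- IL-23 ears, 10660 to 13320 CPM in wild-type IL-23 ears and 9374 to 11660 CPM in wild-type GFP ears. Most of that sum in wild-type IL-23 ears was Krt14, which rose there against GFP ears by 2.34-fold, while Krt15 fell by 11.5-fold and Col17a1 by 4.87-fold and the other 4 of 7 markers were not called. In Mdl-1-/- ears against wild type under IL-23, Col17a1 rose by 3.24-fold, Krt14 fell by 1.61-fold and the other 5 were not called. The 10 neutrophil markers summed to 6665 to 25960 CPM in Mdl-1-/- IL-23 ears, 34910 to 74250 CPM in wild-type IL-23 ears and 227 to 354 CPM in wild-type GFP ears. Most of those counts were S100a8 and S100a9, which inflamed keratinocytes also express. Csf3r, a receptor of neutrophils, had 0.479 to 2.52 CPM in Mdl-1-/- IL-23 ears, 4.82 to 6.94 CPM in wild-type IL-23 ears and 0.348 to 1.84 CPM in wild-type GFP ears.

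The 76 genes made up a small share of the RNA, and that share was largest in wild-type ears with IL-23. Their summed level was 1780, 2140 and 1997 CPM in Mdl-1-/- IL-23 ears, 2414, 2386 and 2623 CPM in wild-type IL-23 ears, and 1695, 1824 and 1672 CPM in wild-type GFP ears. These CPM carry the TMM factor (trimmed mean of M-values), which sets libraries level on the bulk of genes. The wild-type IL-23 libraries lay above all others. Mdl-1-/- library 1 lay between GFP libraries, while Mdl-1-/- libraries 2 and 3 lay above them. As a plain share of all counts the genes took 0.178% to 0.199% in Mdl-1-/- IL-23 ears, 0.210% to 0.224% in wild-type IL-23 ears and 0.193% to 0.209% in wild-type GFP ears. On that scale the wild-type IL-23 libraries were still the highest, but the mean was lower in Mdl-1-/- IL-23 ears (1923 CPM) than in wild-type GFP ears (2000 CPM). Genes encoded in mitochondrial DNA took 11.4% to 12.9% of counts in Mdl-1-/- IL-23 ears, 8.69% to 8.99% in wild-type IL-23 ears and 12.6% to 15.1% in wild-type GFP ears. Scaled to counts outside those genes, the members' means were 2190 CPM in Mdl-1-/- IL-23 ears, 2370 CPM in wild-type IL-23 ears and 2326 CPM in wild-type GFP ears, and the 2 wild-type groups overlapped.

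**Figure D1:**
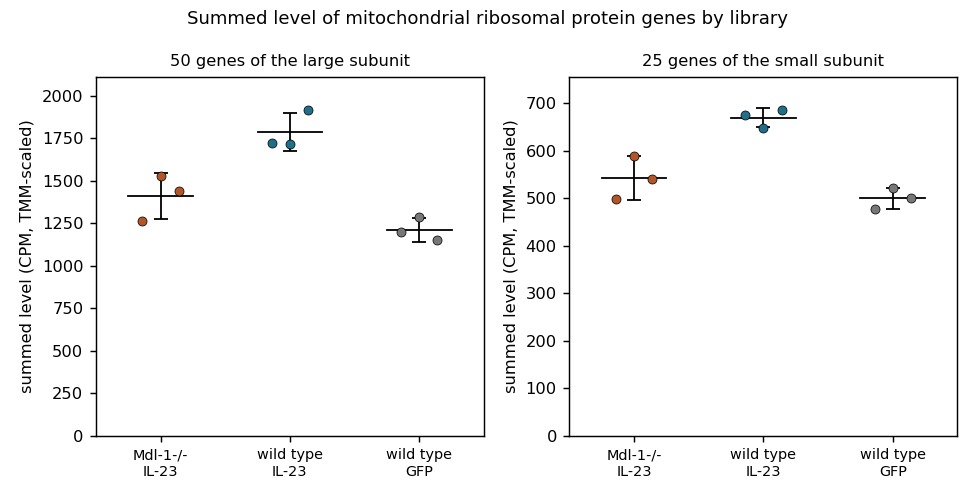
Summed level of the 50 large-subunit and 25 small-subunit genes in each library, in TMM-scaled CPM; points are libraries, lines the mean and bars the SD of 3 libraries. In both panels the 3 wild-type IL-23 libraries lie above the Mdl-1-/- IL-23 and wild-type GFP libraries; scaled to counts outside mitochondrially encoded genes, the sums over all members of the wild-type groups overlap.

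With TMM scaling both subunits followed this order. The 50 genes of the large subunit summed to 1262, 1531 and 1437 CPM in Mdl-1-/- IL-23 ears, 1724, 1719 and 1918 CPM in wild-type IL-23 ears, and 1197, 1285 and 1149 CPM in wild-type GFP ears. For the 25 genes of the small subunit the ranges were 497 to 590 CPM in Mdl-1-/- IL-23 ears, 647 to 686 CPM in wild-type IL-23 ears and 478 to 521 CPM in wild-type GFP ears. As a plain share of all counts the small-subunit genes overlapped between wild-type groups. They took 0.05495% to 0.06265% in wild-type IL-23 ears and 0.05598% to 0.05963% in wild-type GFP ears. The large-subunit genes took 0.1536% to 0.160% and 0.1325% to 0.1471%, without overlap. Symbols were placed by the known structure rather than by their letters, since Mrps30 and Mrps18a belong to the large subunit and Mrps36 is a subunit of the 2-oxoglutarate dehydrogenase complex. In RNA of a whole ear, fewer cells of a type and less RNA per cell cannot be told apart.

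In wild-type ears 35 of these genes rose with IL-23 DNA, with the stalk gene Mrpl12 and the mitochondria-specific genes Mrpl42, Mrps25 and Mrps27 among the largest rises. Of the 75 genes that passed the filter on low counts, 35 rose and 3 fell at an adjusted p under 0.05 (edgeR quasi-likelihood test, Benjamini-Hochberg over 13807 genes, with 3 libraries in each group). Bracketed values of a gene are its log2 fold change in the comparison at hand. Over all genes tested, 22.9% were called higher and 21.7% lower. The median log2 fold change was 0.46 for the 75 genes and -0.04 for all genes, and 61 of the 75 values were positive. Levels of 45 genes lay higher in all 3 IL-23 libraries than in any GFP library and 6 lay lower, where 27.3% and 27.4% of all genes did so. The genes that rose did so by 1.35-fold to 2.59-fold, with a median of 1.64-fold. By depth, of 41 genes with a mean count of at least 100, 25 rose and 1 fell, and of 34 genes below that, 10 rose and 2 fell, with median log2 fold changes of 0.50 and 0.38 (median standard errors 0.17 and 0.24).

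The size of the group's change and the number of falls depended on the scaling, while the median stayed positive and rises outnumbered falls under each scaling tried. With library totals alone 13 members were called higher and 11 lower, the median of the 75 was 0.06, and that of all genes was -0.44. With upper-quartile scaling 26 rose and 6 fell, with medians of 0.31 for the members and -0.20 for all genes. A scaling factor moves all genes of a library by about the same amount, so by construction the members' median lay 0.51 above that of all genes in each case. Over all calls, 51.3% were higher with TMM, 38.9% with upper-quartile scaling and 22.7% with library totals. Leaving out GFP library 3 or GFP library 1 left 24 and 25 members called. Over all genes the calls went from 6169 to 4622 and 4913 in these fits.

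**Figure D2:**
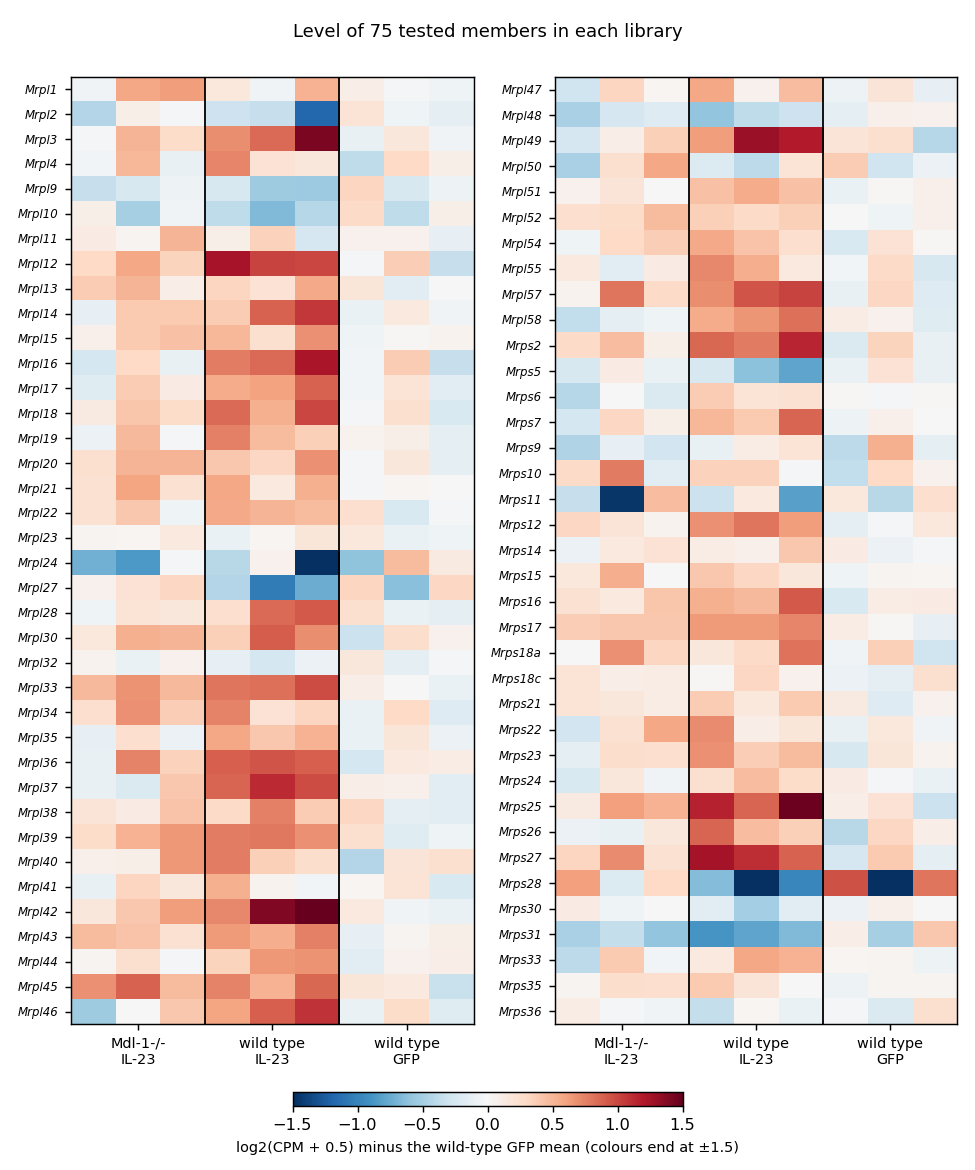
Level of the 75 tested genes in each library, as log2(CPM + 0.5) relative to the average over the 3 wild-type GFP libraries, with libraries 1 to 3 of a group from left to right; red is higher and blue lower. The block of red in the wild-type IL-23 columns is paler in the Mdl-1-/- columns, and Mrps31, Mrpl27 and Mrps28 run the other way in wild-type IL-23 ears (TMM scaling).

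Because many members moved in the same direction, their promoter windows were read. RefSeq windows on GRCm38.p6, from 250 bases before to 50 after a start, were found for 68 of 76 members. The NRF1 letters, GCGCA and GCGC with any base between them, stood on either strand in 19.1% of members and 11.3% of 9521 tested genes with a window, the ETS letters CCGGAAG in 36.8% and 19.9%, the YY1 letters AANATGGC in 30.9% and 10.0%, and the SP1 letters GGGCGG in 34 of 68 members and 67.6% of tested genes. NRF1, a factor known for nuclear genes of mitochondrial function, had its letters in 27.3% of 33 members that rose with IL-23 DNA in wild type and 11.8% of 34 tested members that did not. For ETS the shares were 42.4% and 29.4%, for YY1 36.4% and 26.5%, for SP1 45.5% and 52.9%, for CCAAT 42.4% and 35.3%, and for E-box and TATAAA alike 9.09% and 5.88%. The letters CCAAT stood in 38.2% of members and 42.7% of tested genes, the E-box CACGTG in 7.35% and 11.8%, and TATAAA in 7.35% and 9.69%. A gene counts once if any of its windows holds a match, the motifs may overlap, and no share was tested. The stretches before the start of 4 members follow, as examples of large rises with and without these letters (Mrpl42, Mrps27 and Mrpl12) and of a fall (Mrpl27). They are on the gene's strand, 5′ to 3′, with matches to the NRF1, ETS and YY1 letters in capitals, and end at or before the earliest annotated start.
Mrpl42, chr10:95501950-95502099, minus strand: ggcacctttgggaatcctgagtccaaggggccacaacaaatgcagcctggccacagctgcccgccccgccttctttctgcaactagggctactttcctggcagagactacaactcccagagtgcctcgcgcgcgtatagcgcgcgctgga
Mrps27, chr13:99344636-99344785, plus strand: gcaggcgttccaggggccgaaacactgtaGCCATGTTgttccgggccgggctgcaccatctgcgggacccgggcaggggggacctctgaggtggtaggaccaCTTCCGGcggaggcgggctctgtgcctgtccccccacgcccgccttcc
Mrpl12, chr11:120484487-120484612, plus strand: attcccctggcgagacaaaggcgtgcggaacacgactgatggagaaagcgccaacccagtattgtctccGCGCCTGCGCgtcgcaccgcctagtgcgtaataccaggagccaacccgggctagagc
Mrpl27, chr11:94653641-94653766, plus strand: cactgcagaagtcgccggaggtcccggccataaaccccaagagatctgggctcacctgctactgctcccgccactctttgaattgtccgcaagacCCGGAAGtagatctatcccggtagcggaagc
In these stretches Mrps27 holds the YY1 letters (GCCATGTT) and the ETS letters (CTTCCGG) and Mrpl12 the NRF1 letters (GCGCCTGCGC), all 3 read on the opposite strand, and Mrpl27 holds the ETS letters (CCGGAAG). The stretch of Mrpl42 holds none of the 3 motifs, and the YY1 match of its window, like that of Mrpl27, lies outside the letters printed. The stretches of Mrps25, which also rose strongly, and of Mrps31 and Mrpl48, which fell, are not printed and hold none of the 3 motifs. The ETS match counted for Mrpl48 lies outside its stretch. A match is a run of letters and no evidence of binding in these ears.

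Mrpl42 rose most. It encodes a protein specific to mitochondrial ribosomes and is a minus-strand gene of chromosome 10, from 95480805 to 95501940 (GENCODE M21, GRCm38). Mrpl42 had 25.3, 29.7 and 34.7 CPM in Mdl-1-/- IL-23 ears, 37.1, 59.5 and 78.7 CPM in wild-type IL-23 ears and 24.9, 21.5 and 20.9 CPM in wild-type GFP ears. The wild-type IL-23 libraries were all above the others but spread widely among themselves. For wild-type IL-23 over GFP ears the log2 fold change of Mrpl42 was 1.37 ± 0.23 (SE, adjusted p = 0.000212), a 2.59-fold rise.

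Mrps25 and Mrps27 are mitochondria-specific proteins of the small subunit, and MRPS27 in human cells belongs to the RNA-binding pentatricopeptide repeat family. Mrps25 had 14.1, 19.9 and 18.7 CPM in Mdl-1-/- IL-23 ears, 29.1, 23.9 and 36.4 CPM in wild-type IL-23 ears and 13.8, 15.1 and 10.2 CPM in wild-type GFP ears. Mrps27 had 19.5, 25.6 and 18.2 CPM in Mdl-1-/- IL-23 ears, 37.4, 33.9 and 29.1 CPM in wild-type IL-23 ears and 12.9, 20.4 and 14.1 CPM in wild-type GFP ears. Neither gene overlapped between wild-type groups. For wild-type IL-23 over GFP ears the log2 fold change of Mrps25 was 1.19 ± 0.22 (SE, adjusted p = 0.000438), a 2.28-fold rise. For Mrps27 the log2 fold change was 1.09 ± 0.21 (SE, adjusted p = 0.000590). Both rest on counts that an overlapping gene may share: 80.8% of the last exon of Mrps25 lies opposite Nr2c2, and 5.83% of that of Mrps27 opposite 6430562O15Rik, and the strand setting of the counting is not given in the sources used here.

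Mrpl12 forms the flexible stalk of the large subunit that recruits translation factors, and the human protein also binds the mitochondrial RNA polymerase. Mrpl12 had 30.6, 37.3 and 31.4 CPM in Mdl-1-/- IL-23 ears, 59.4, 50.8 and 50.3 CPM in wild-type IL-23 ears and 24.4, 32.3 and 19.5 CPM in wild-type GFP ears. For wild-type IL-23 over GFP ears the log2 fold change of Mrpl12 was 1.08 ± 0.19 (SE, adjusted p = 0.000251), a 2.11-fold rise. The other stalk genes were not called. Mrpl10, which anchors the stalk, had 4.03, 2.52 and 3.59 CPM in Mdl-1-/- IL-23 ears, 2.75, 2.19 and 2.65 CPM in wild-type IL-23 ears and 4.70, 2.75 and 4.02 CPM in wild-type GFP ears, an uncalled log2 fold change of -0.60 ± 0.38 (SE, adjusted p = 0.203). Mrpl11, at the stalk base, had 14.8, 13.9 and 19.4 CPM in Mdl-1-/- IL-23 ears, 14.4, 17.3 and 11.2 CPM in wild-type IL-23 ears and 14.1, 14.1 and 12.4 CPM in wild-type GFP ears (0.10 ± 0.22 SE, adjusted p = 0.744). Mrpl54, a mitochondria-specific neighbour, had 23.04, 29.96 and 31.4 CPM in Mdl-1-/- IL-23 ears, 36.2, 32.6 and 28.8 CPM in wild-type IL-23 ears and 20.5, 28.1 and 24.4 CPM in wild-type GFP ears (0.42 ± 0.18 SE, adjusted p = 0.0688). Only Mrpl12 of these 4 was called in wild-type ears, and the differences between the 4 were not tested.

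Another 6 genes completed the 10 largest rises. Mrpl49, a mitochondria-specific protein of the large subunit, had a log2 fold change of 1.07 ± 0.25 (SE, adjusted p = 0.00292). Mrpl3, a homologue of a bacterial protein near the catalytic centre, had 1.02 ± 0.20 (SE, adjusted p = 0.000615). Mrpl37, specific to mitochondria, had 1.01 ± 0.18 (SE, adjusted p = 0.000402). Mrpl16, whose bacterial homologue contacts transfer RNA, had 0.94 ± 0.21 (SE, adjusted p = 0.00178). Mrps2, a small-subunit protein with a bacterial homologue, had 0.92 ± 0.18 (SE, adjusted p = 0.000800). Mrpl36, the smallest type of large-subunit protein in bacteria, had 0.92 ± 0.20 (SE, adjusted p = 0.00192). In each of them the 3 IL-23 libraries lay above the 3 GFP libraries, as for Mrpl37 with 41.5, 49.0 and 44.6 CPM in wild-type IL-23 ears against 24.0, 23.5 and 19.8 CPM in wild-type GFP ears.

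Mrps31, Mrpl27 and Mrpl48 fell. Mrps31 had 9.84, 10.8 and 9.11 CPM in Mdl-1-/- IL-23 ears, 7.33, 7.88 and 8.60 CPM in wild-type IL-23 ears and 14.97, 9.73 and 18.6 CPM in wild-type GFP ears. The log2 fold change was -0.87 ± 0.26 (SE, adjusted p = 0.0118) for this mitochondria-specific small-subunit gene, and without GFP library 3 it was not called (adjusted p = 0.0864). Mrpl27 had 14.8, 16.5 and 17.7 CPM in Mdl-1-/- IL-23 ears, 10.3, 6.57 and 8.27 CPM in wild-type IL-23 ears and 17.8, 8.998 and 17.6 CPM in wild-type GFP ears. Mrpl27, whose bacterial homologue reaches the catalytic centre, had -0.82 ± 0.28 (SE, adjusted p = 0.0231), and GFP library 2 overlapped the IL-23 libraries. Its call was kept in 5 of 9 fits that each left out 1 library, with an adjusted p of up to 0.112. Mrpl48, specific to mitochondria, had 23.7, 27.9 and 29.2 CPM in Mdl-1-/- IL-23 ears, 22.00, 25.4 and 26.8 CPM in wild-type IL-23 ears and 30.3, 35.1 and 34.96 CPM in wild-type GFP ears (-0.44 ± 0.17 SE, adjusted p = 0.0402), and its call was kept in 3 of 9 such fits. Mrps28 had the most negative value of the 75 without a call (-2.15 ± 0.89 SE, adjusted p = 0.0678). Its raw counts were 18, 9 and 13 in Mdl-1-/- IL-23 ears, 6, 0 and 3 in wild-type IL-23 ears, and 30, 2 and 30 in wild-type GFP ears, so GFP library 2 lay with the wild-type IL-23 libraries.

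**Figure D3:**
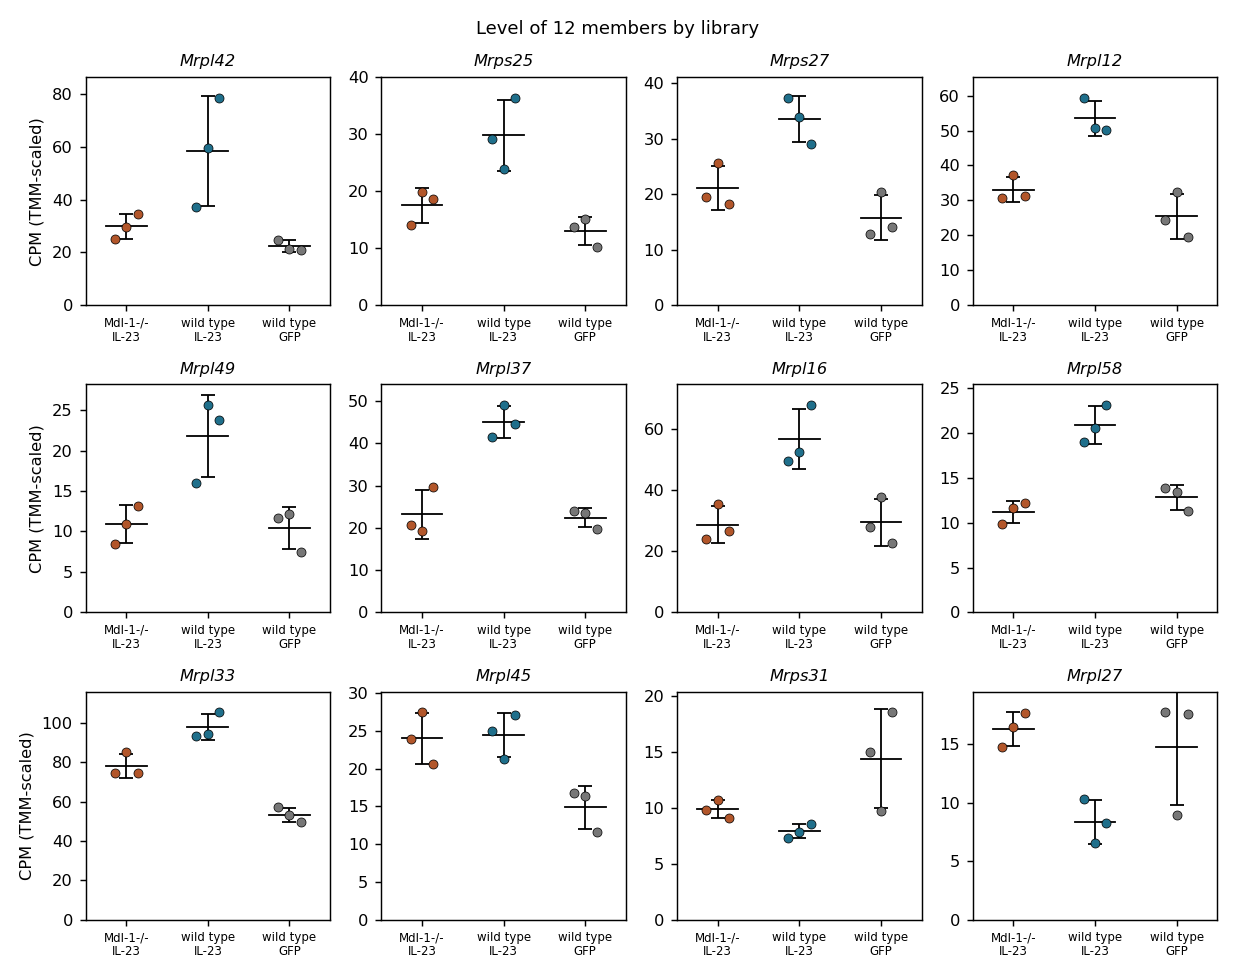
TMM-scaled CPM of 12 members in each library; points are libraries, lines the mean and bars the SD of 3 libraries. Mrpl42 to Mrpl58 are highest in wild-type IL-23 ears, Mrpl33 and Mrpl45 are above wild-type GFP in both IL-23 groups, and Mrps31 and Mrpl27 have their lowest mean in wild-type IL-23 ears.

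Around the exit tunnel of the large subunit, calls were mixed. Mrpl44 (0.56 ± 0.16 SE, adjusted p = 0.0108) and Mrpl45 (0.71 ± 0.20 SE, adjusted p = 0.00911), mitochondria-specific proteins near the tunnel mouth, rose with IL-23 DNA in wild type; human MRPL45 ties the ribosome to the inner membrane. Mrpl22 (0.54 ± 0.25 SE, adjusted p = 0.0901), Mrpl23 (0.03 ± 0.16 SE, adjusted p = 0.886) and Mrpl24 (-0.65 ± 0.54 SE, adjusted p = 0.342), the homologues of bacterial tunnel proteins, were not called. Mrpl23 and its pseudogene Mrpl23-ps1 are identical over 298 bases at the transcript end, and the pseudogene row held 141.6% of the counts of Mrpl23, so reads of the pair cannot be told apart. Mrpl22 has a copy in Gm6997 with 32.4% of its counts, and 66.2% of the last exon of Mrpl24 lies opposite Rrnad1. Mrpl58, a peptidyl-tRNA hydrolase built into the large subunit that frees chains from stalled ribosomes, rose (0.70 ± 0.20 SE, adjusted p = 0.00919).

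Of the small subunit, 9 of 24 tested genes rose and 1 fell, and of the large subunit 26 of 50 rose and 2 fell. The difference between subunits was not tested. Mrps12, the homologue of the bacterial decoding-centre protein S12, had 30.2, 27.9 and 25.2 CPM in Mdl-1-/- IL-23 ears, 39.2, 42.7 and 37.7 CPM in wild-type IL-23 ears and 21.9, 23.9 and 27.2 CPM in wild-type GFP ears and rose (0.71 ± 0.16 SE, adjusted p = 0.00204). Mrps7, in the head of the subunit, rose too (0.61 ± 0.19 SE, adjusted p = 0.0185), though 9.76% of its last exon lies opposite Mif4gd. Mrps5, at the messenger RNA entry, had 13.2, 17.1 and 14.6 CPM in Mdl-1-/- IL-23 ears, 13.3, 10.1 and 8.93 CPM in wild-type IL-23 ears and 14.6, 18.4 and 14.5 CPM in wild-type GFP ears and was not called (-0.54 ± 0.22 SE, adjusted p = 0.0568), nor was Mrps15 (0.31 ± 0.19 SE, adjusted p = 0.190). Neither Mrps30 (-0.28 ± 0.18 SE, adjusted p = 0.210) nor Mrps18a (0.44 ± 0.30 SE, adjusted p = 0.251) was called, nor Mrps36 (-0.15 ± 0.19 SE, adjusted p = 0.546). By origin, 20 of 46 genes with a bacterial homologue rose and 1 fell, against 15 of 28 mitochondria-specific genes that rose and 2 that fell.

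Of the 3 Mrpl and 3 Mrps genes with the highest mean CPM within their symbol group, 4 rose in wild type. Mrpl18 had 74.5, 91.03 and 82.4 CPM in Mdl-1-/- IL-23 ears, 123, 98.5 and 137 CPM in wild-type IL-23 ears and 67.2, 80.4 and 58.2 CPM in wild-type GFP ears and rose in wild type (0.80 ± 0.16 SE, adjusted p = 0.000943). Mrpl33, a small protein of the large subunit, had 74.5, 85.3 and 74.8 CPM in Mdl-1-/- IL-23 ears, 93.5, 94.6 and 106 CPM in wild-type IL-23 ears and 57.1, 53.1 and 49.8 CPM in wild-type GFP ears and rose (0.87 ± 0.14 SE, adjusted p = 0.000113). Mrpl51 rose (0.49 ± 0.13 SE, adjusted p = 0.00730), as did Mrps17 (0.67 ± 0.14 SE, adjusted p = 0.00123). Mrps14 (0.20 ± 0.15 SE, adjusted p = 0.311) and Mrps33 (0.43 ± 0.19 SE, adjusted p = 0.0774) were not called. Mrps33 has a copy, Gm5776, with 17.2% of its counts.

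Of the 38 calls, 21 passed in each of the 9 fits that left out 1 library, and 13 passed in those fits and in all 10 other settings. Mrpl42, Mrps25, Mrps27, Mrpl12, Mrpl49, Mrpl3, Mrpl37, Mrpl16, Mrps2, Mrpl36, Mrpl18, Mrpl33 and Mrpl57 were those 13. Without the 18 members that share sequence with another gene at their 3' end, 27 of 58 rose and 3 fell. In the authors' deposited table of this comparison, 27 members were higher and 1 lower at a false discovery rate under 0.05, of 5315 genes under it. All 28 were called here too, from the same libraries.

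Under IL-23 DNA, Mdl-1-/- ears had lower levels of 16 of these genes than wild-type ears, among them Mrpl37, Mrpl16 and Mrpl58. Of 75 tested genes 16 fell and 1 rose in Mdl-1-/- ears, where 10.1% of all genes were called lower and 7.58% higher. The median log2 fold change was -0.27 for the 75 genes and 0.00 for all genes, and 57 values were negative. In 32 genes all 3 Mdl-1-/- libraries lay below all 3 wild-type libraries and in 4 above them, against 19.2% and 17.2% of all genes. The genes that fell did so by 1.32-fold to 2.001-fold. This comparison uses the same wild-type IL-23 libraries as the one before, so high values in those libraries enter both. With library totals alone 6 members fell and 1 rose, with medians of -0.11 for the members and 0.16 for all genes; over all calls, 42.9% were higher with TMM, 53.2% with upper-quartile scaling and 67.0% with library totals.

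Mrpl37, Mrpl16 and Mrpl58 kept their calls in every setting and every fit that left out a library. Mrpl37 had 20.6, 19.2 and 29.7 CPM in Mdl-1-/- IL-23 ears, 41.5, 49.04 and 44.6 CPM in wild-type IL-23 ears and 24.02, 23.5 and 19.8 CPM in wild-type GFP ears. For Mdl-1-/- over wild-type ears under IL-23 the log2 fold change of Mrpl37 was -0.96 ± 0.19 (SE, adjusted p = 0.00379), a 1.95-fold fall. The Mdl-1-/- and GFP libraries overlapped, and the wild-type IL-23 libraries stood above both. Mrpl16 had 23.9, 35.5 and 26.6 CPM in Mdl-1-/- IL-23 ears, 49.5, 52.5 and 67.8 CPM in wild-type IL-23 ears and 28.02, 37.8 and 22.6 CPM in wild-type GFP ears. For Mdl-1-/- over wild-type ears under IL-23 the log2 fold change of Mrpl16 was -0.98 ± 0.21 (SE, adjusted p = 0.00639), a 1.97-fold fall. Mrpl58 had 9.84, 11.7 and 12.2 CPM in Mdl-1-/- IL-23 ears, 19.02, 20.6 and 23.1 CPM in wild-type IL-23 ears and 13.9, 13.4 and 11.3 CPM in wild-type GFP ears. The 2 IL-23 groups did not overlap for the hydrolase gene. For Mdl-1-/- over wild-type ears under IL-23 the log2 fold change of Mrpl58 was -0.89 ± 0.20 (SE, adjusted p = 0.00854), a 1.85-fold fall.

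Another 7 falls were among the 10 largest, each lost when at least 1 library was left out. Mrpl49 had 8.50, 10.98 and 13.2 CPM in Mdl-1-/- IL-23 ears, 16.04, 25.6 and 23.8 CPM in wild-type IL-23 ears and 11.7, 12.1 and 7.42 CPM in wild-type GFP ears, a log2 fold change of -1.001 ± 0.26 (SE, adjusted p = 0.0158), which was not called when wild-type IL-23 library 2 was dropped (adjusted p = 0.0880). Mrpl42 (-0.96 ± 0.23 SE, adjusted p = 0.0106) was not called once wild-type IL-23 library 3 was left out (adjusted p = 0.0540). Mrpl46, a mitochondria-specific large-subunit gene, had 7.60, 11.2 and 15.1 CPM in Mdl-1-/- IL-23 ears, 17.2, 21.5 and 24.5 CPM in wild-type IL-23 ears and 10.4, 13.8 and 9.90 CPM in wild-type GFP ears (-0.89 ± 0.25 SE, adjusted p = 0.0255), and its adjusted p reached 0.112 without Mdl-1-/- library 1. For Mrps25 (-0.75 ± 0.22 SE, adjusted p = 0.0267) and Mrpl3 (-0.75 ± 0.20 SE, adjusted p = 0.0167) the adjusted p reached 0.119 and 0.0925 without wild-type IL-23 library 3. For Mrpl12 (-0.69 ± 0.18 SE, adjusted p = 0.0186) and Mrps27 (-0.67 ± 0.21 SE, adjusted p = 0.0361) it reached 0.0723 and 0.139 without Mdl-1-/- library 3. Mrps2, Mrpl17, Mrpl18, Mrps12, Mrpl35 and Mrpl51 also fell, by 1.32-fold to 1.57-fold.

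Mrpl27 was the single riser, with the libraries given above and a log2 fold change of 0.96 ± 0.28 (SE, adjusted p = 0.0272), not called with wild-type IL-23 library 2 left out (adjusted p = 0.121). The 16 genes that fell were all among the 35 that rose with IL-23 DNA in wild type. The rest of those 35, more than had a call, were not called between genotypes. Both comparisons use the same wild-type IL-23 libraries, so part of the overlap of the 16 with the 35 is built in. The same overlap over all genes was not counted. Mrpl33 had an uncalled value of -0.32 ± 0.14 (SE, adjusted p = 0.107), Mrpl45 of -0.02 ± 0.20 (SE, adjusted p = 0.960), Mrps17 of -0.28 ± 0.14 (SE, adjusted p = 0.182) and Mrpl44 of -0.47 ± 0.16 (SE, adjusted p = 0.0577). The stalk and tunnel genes Mrpl10 (0.42 ± 0.39 SE, adjusted p = 0.489), Mrpl11 (0.15 ± 0.22 SE, adjusted p = 0.689), Mrpl54 (-0.22 ± 0.18 SE, adjusted p = 0.444), Mrpl22 (-0.33 ± 0.25 SE, adjusted p = 0.389), Mrpl23 (0.04 ± 0.17 SE, adjusted p = 0.908) and Mrpl24 (-0.01 ± 0.57 SE, adjusted p = 0.992) were not called either. Also uncalled were Mrps5 (0.46 ± 0.23 SE, adjusted p = 0.166), Mrps7 (-0.54 ± 0.20 SE, adjusted p = 0.0659), Mrps15 (-0.05 ± 0.19 SE, adjusted p = 0.883), Mrps14 (-0.10 ± 0.16 SE, adjusted p = 0.684), Mrps33 (-0.41 ± 0.19 SE, adjusted p = 0.151), Mrps30 (0.30 ± 0.18 SE, adjusted p = 0.257), Mrps18a (-0.07 ± 0.31 SE, adjusted p = 0.901) and Mrps36 (0.15 ± 0.20 SE, adjusted p = 0.625).

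Of the 50 large-subunit genes 12 fell and 1 rose in Mdl-1-/- ears, and of 24 small-subunit genes 4 fell. The count of 17 called members went down to 7 without wild-type IL-23 library 2 and to 5 without library 3 of that group. It went down to 5 without Mdl-1-/- library 1 and to 6 without Mdl-1-/- library 3. Calls over all genes went down too in these fits, from 2439 to 1128, 1300, 1166 and 1363, in the same order. In the authors' deposited table of this comparison 7 members were lower and 1 higher in Mdl-1-/- ears, of 1662 genes under the same rate. The sign of that table was turned to run Mdl-1-/- over wild type, and all 8 were called here.

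**Figure D4:**
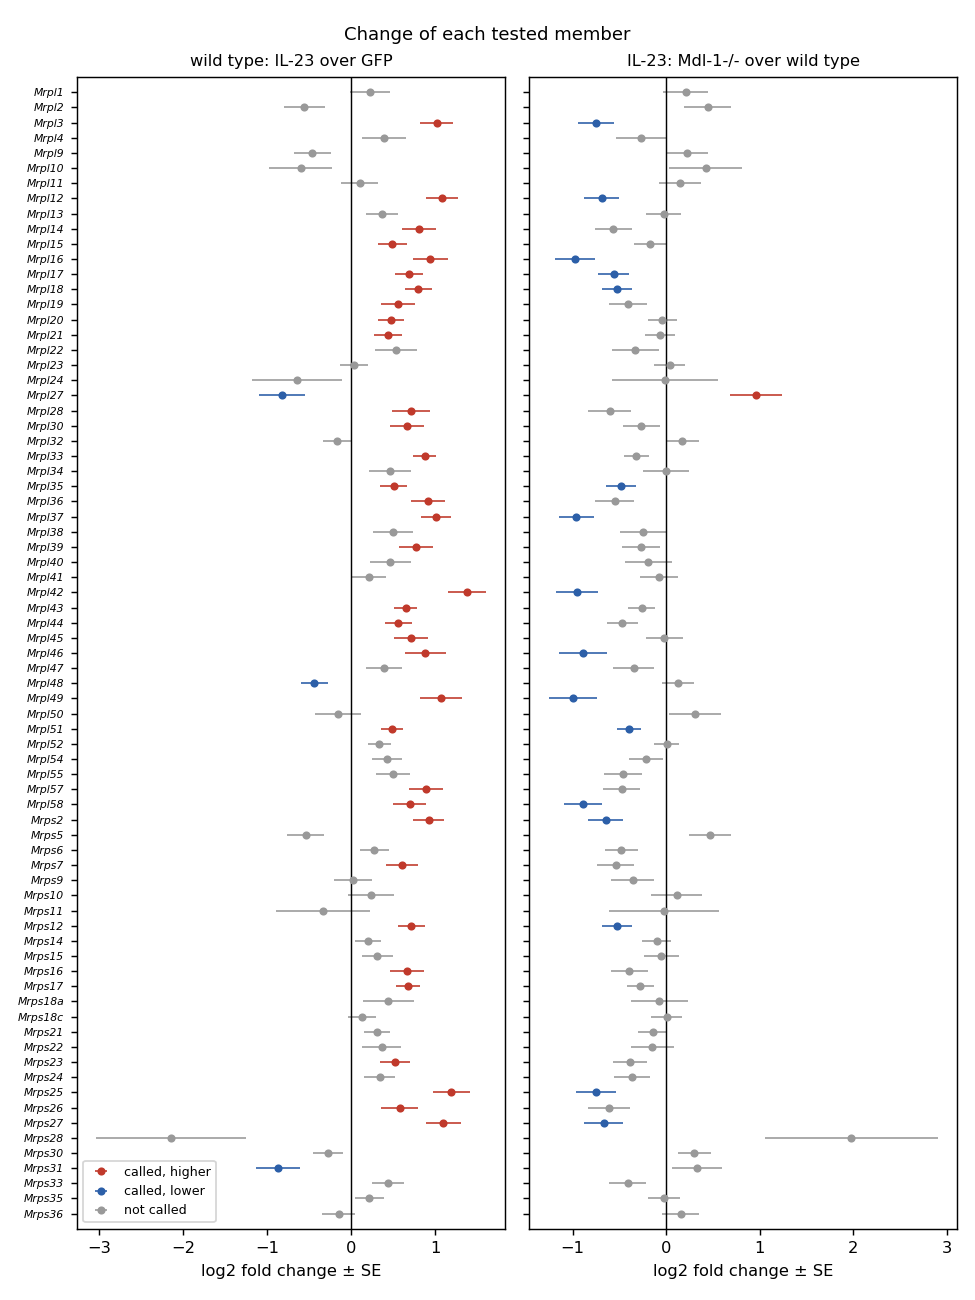
Log2 fold change ± SE of each of the 75 tested members for wild-type IL-23 over GFP ears (left) and Mdl-1-/- over wild-type ears under IL-23 (right), coloured by call at an adjusted p under 0.05 with TMM scaling. Red points prevail on the left, 35 against 3, and blue points on the right, 16 against 1; with library totals alone the counts on the left were 13 against 11.

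Set against wild-type GFP ears, Mdl-1-/- IL-23 ears had 2 members called higher and 0 lower, where 10.2% of all genes were called higher and 6.93% lower. At an unadjusted p under 0.05 the counts were 8 higher and 1 lower. The median of the 75 was 0.15 and that of all genes -0.02, and the groups did not overlap in 12 members with higher and 1 with lower levels, against 17.9% of all genes each way. Mrpl33 had the values given above and a log2 fold change of 0.55 ± 0.14 (SE, adjusted p = 0.0107). Mrpl45 had 23.9, 27.4 and 20.6 CPM in Mdl-1-/- IL-23 ears, 24.98, 21.2 and 27.1 CPM in wild-type IL-23 ears and 16.7, 16.3 and 11.6 CPM in wild-type GFP ears. The log2 fold change of Mrpl45 was 0.69 ± 0.20 (SE, adjusted p = 0.0244), and its level in Mdl-1-/- ears was near that of wild-type IL-23 ears. Neither gene was called without GFP library 3, at adjusted p of 0.0566 and 0.119. No member was called without Mdl-1-/- library 2, while 6 were without GFP library 2. Over all genes the calls went from 2359 to 1340, 1365 and 2535 in these fits, in the same order. With library totals alone 0 members rose and 2 fell, and the median reversed to -0.10, with -0.27 for all genes; of all calls, 59.4% were higher with TMM, 43.7% with upper-quartile scaling and 26.1% with library totals. In the authors' deposited table no member was under a false discovery rate of 0.05, while 1858 genes were.

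This comparison shares the GFP libraries with the first and the Mdl-1-/- libraries with the second. Mrpl42 had 0.42 ± 0.23 (SE, adjusted p = 0.235), Mrps25 0.44 ± 0.22 (SE, adjusted p = 0.195), Mrps27 0.42 ± 0.21 (SE, adjusted p = 0.186) and Mrpl12 0.39 ± 0.19 (SE, adjusted p = 0.171), none of them called. Mrpl37 had 0.05 ± 0.19 (SE, adjusted p = 0.895), Mrpl16 -0.04 ± 0.21 (SE, adjusted p = 0.926) and Mrpl58 -0.19 ± 0.20 (SE, adjusted p = 0.552), also uncalled. Among the genes named in every comparison for their place in the ribosome or high CPM, the other uncalled values ran from -0.66 (SE 0.53) for Mrpl24 to 0.40 (SE 0.14) for Mrps17.

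Libraries of a group varied among themselves. Relative to the GFP mean, the median member stood at 0.05, 0.26 and 0.21 (log2) in Mdl-1-/- IL-23 libraries 1 to 3, at 0.50, 0.37 and 0.46 in wild-type IL-23 libraries, and at -0.03, 0.07 and -0.06 in GFP libraries. The number of members above the GFP mean was 40, 59 and 53 of 75 in Mdl-1-/- IL-23 ears, 59, 63 and 59 in wild-type IL-23 ears and 32, 49 and 30 in wild-type GFP ears. Neutrophil markers summed to 6665, 25960 and 13500 CPM in Mdl-1-/- IL-23 libraries 1 to 3, where library 1 also had the lowest member median. In wild-type IL-23 libraries they summed to 34910, 46560 and 74250 CPM, where library 1 had the highest member median. The sums in wild-type GFP libraries were 346, 354 and 227 CPM, and library 3 had the lowest member median. Proliferation genes summed to 731, 1035 and 802 CPM in Mdl-1-/- IL-23 ears, 1570, 1311 and 1309 CPM in wild-type IL-23 ears and 756, 778 and 659 CPM in wild-type GFP ears. Of those 13 genes 8 rose and 0 fell with IL-23 DNA in wild type, and 5 fell and 0 rose in Mdl-1-/- ears against wild type under IL-23. All 6 tested neutrophil markers rose with IL-23 DNA in wild type, and 2 of them fell in Mdl-1-/- ears against wild type under IL-23. Over all genes, 22.9% were called higher and 21.7% lower in the former comparison, and 7.58% and 10.1% in the latter. No neutrophil or proliferation marker was at 0 in all libraries, and the part of these cells in the members' results was not tested.

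Markers of other cell types also differed between groups. Beside the counts below, 22.9% of all genes were called higher and 21.7% lower with IL-23 DNA in wild type. Between genotypes under IL-23 the shares were 7.58% and 10.1%, and in Mdl-1-/- IL-23 ears against GFP ears 10.2% and 6.93%. Of 10 tested adipocyte markers 9 fell with IL-23 DNA in wild type, 9 fell in Mdl-1-/- IL-23 ears against GFP ears and 0 were called between genotypes. Their summed level was 265 to 276 CPM in Mdl-1-/- IL-23 ears, 182 to 297 CPM in wild-type IL-23 ears and 554 to 914 CPM in wild-type GFP ears. Skeletal muscle markers summed to 288 to 1220 CPM in Mdl-1-/- IL-23 ears, 604 to 748 CPM in wild-type IL-23 ears and 1007 to 1932 CPM in wild-type GFP ears, and 4 of 13 fell in wild type. In Mdl-1-/- IL-23 ears 2 of 13 fell against GFP ears, and Myh2 alone rose against wild type under IL-23, by 5.09-fold. Of 8 differentiated keratinocyte markers 6 rose and 1 fell with IL-23 DNA in wild type, and 2 rose in Mdl-1-/- ears against wild type under IL-23. They summed to 20050 to 24000 CPM in Mdl-1-/- IL-23 ears, 13080 to 13530 CPM in wild-type IL-23 ears and 3243 to 6311 CPM in wild-type GFP ears. The higher sum in Mdl-1-/- ears was that of Krt10, with a mean of 14870 CPM in Mdl-1-/- IL-23 ears and 5039 CPM in wild-type IL-23 ears, while Krt1 had 1097 CPM in Mdl-1-/- IL-23 ears and 1834 CPM in wild-type IL-23 ears and was not called. All 5 tested sebocyte markers fell in both IL-23 groups against GFP ears, and 2 of them rose in Mdl-1-/- ears against wild type under IL-23. Their sums were 1806 to 2354 CPM in Mdl-1-/- IL-23 ears, 1230 to 2103 CPM in wild-type IL-23 ears and 4249 to 5224 CPM in wild-type GFP ears. Of 4 tested chondrocyte markers 3 fell in each IL-23 group against GFP ears. In wild-type IL-23 ears against GFP ears, 3 of 4 tested brown adipocyte markers and 2 of 7 fibroblast markers fell, and 3 of 8 monocyte and macrophage markers rose, while none of these was called between genotypes. Of all markers listed, 1 of 8 chondrocyte genes was at 0 in all libraries. Their part in the members' results was not tested.

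Genes that serve the same ribosome were compared as lists. Over all genes tested, 22.9% were called higher and 21.7% lower with IL-23 DNA in wild type. In Mdl-1-/- ears against wild type under IL-23 these shares were 7.58% and 10.1%. Of 5 mitoribosome proteins under other symbols, Chchd1 (0.48 ± 0.16 SE, adjusted p = 0.0249) and Ptcd3 (0.34 ± 0.13 SE, adjusted p = 0.0451) rose with IL-23 DNA in wild type, and Gadd45gip1 (-0.80 ± 0.24 SE, adjusted p = 0.0318) fell in Mdl-1-/- ears under IL-23. Their medians were 0.40 and -0.35 on the log2 scale. Of 26 assembly factors 4 rose (15.4%) and 0 fell in wild type, with a median of -0.05. In Mdl-1-/- ears under IL-23, 0 rose and 2 fell (7.69%). All of these shares lay below those of all genes. Fastkd2, an RNA-binding protein needed for the large ribosomal RNA, had 1.15 ± 0.22 (SE, adjusted p = 0.000531). Mrm2, which methylates that RNA, had 0.90 ± 0.28 (SE, adjusted p = 0.0155) in wild type and -0.86 ± 0.29 (SE, adjusted p = 0.0485) between genotypes. Rcc1l, an assembly protein, rose in wild type (0.75 ± 0.18 SE, adjusted p = 0.00349) and fell in Mdl-1-/- ears under IL-23 (-0.88 ± 0.19 SE, adjusted p = 0.00607).

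Of 14 tested mitochondrial translation factors 2 rose (14.3%) and 1 fell (7.14%) in wild type, below the 22.9% and 21.7% of all genes. Tufm, the elongation factor that delivers transfer RNA, had 0.63 ± 0.24 (SE, adjusted p = 0.0466) and C1qbp, a matrix protein that mitochondrial translation needs, had 0.38 ± 0.14 (SE, adjusted p = 0.0330), while Mtrf1, a release factor family member, fell (-1.67 ± 0.46 SE, adjusted p = 0.00748). The list's median was -0.00334, and 0 of 14 were called between genotypes. Of 19 genes of mitochondrial transcription and messenger RNA 5 rose (26.3%) and 3 fell (15.8%) in wild type. In Mdl-1-/- ears under IL-23, 4 fell (21.1%, against 10.1% of all genes). Lrpprc, which stabilises mitochondrial messenger RNA, had 128, 140 and 114 CPM in Mdl-1-/- IL-23 ears, 321, 306 and 277 CPM in wild-type IL-23 ears and 112, 135 and 85.5 CPM in wild-type GFP ears. Its log2 fold changes were 1.45 ± 0.16 (SE, adjusted p = 6.72e-06) in wild type and -1.24 ± 0.16 (SE, adjusted p = 0.000891) between genotypes. Polrmt, the mitochondrial RNA polymerase, had 1.14 ± 0.29 (SE, adjusted p = 0.00468) in wild type and -1.40 ± 0.30 (SE, adjusted p = 0.00653) between genotypes. Fastkd3 rose in wild type (1.27 ± 0.23 SE, adjusted p = 0.000351) and fell between genotypes (-0.87 ± 0.23 SE, adjusted p = 0.0165). Fastkd1 (-1.57 ± 0.44 SE, adjusted p = 0.00919) and Pnpt1 (-0.72 ± 0.28 SE, adjusted p = 0.0450) fell in wild type.

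**Figure D5:**
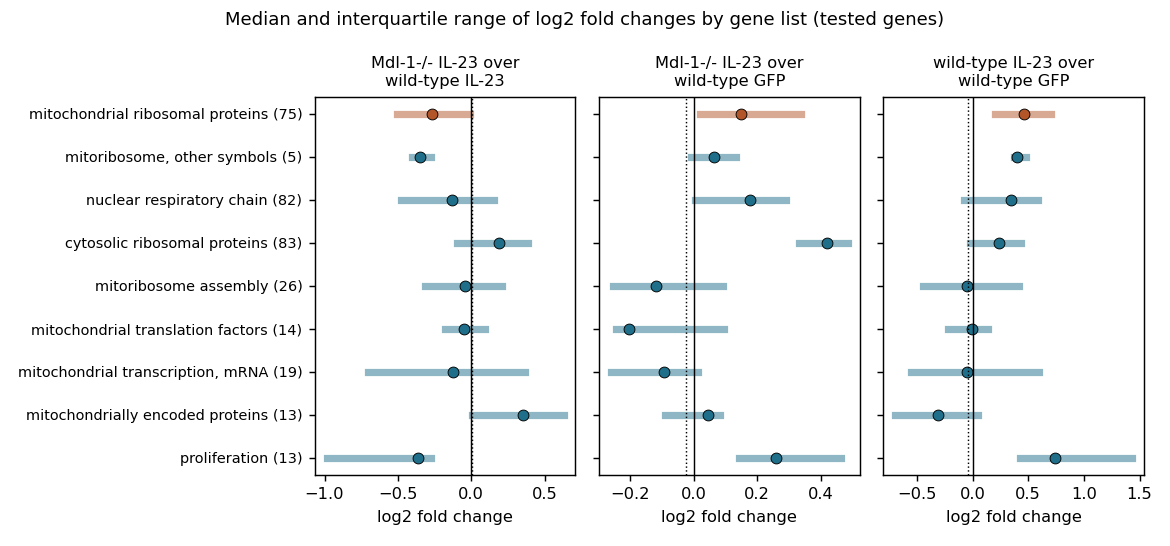
Median (point) and interquartile range (bar) of TMM-based log2 fold changes of the tested genes of each list, whose number is in brackets, in the 3 comparisons; the dotted line is the median of all genes. The members' median is 0.46 for wild-type IL-23 over GFP and -0.27 for Mdl-1-/- over wild-type IL-23, and 0.06 and -0.11 with library totals alone.

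The messenger RNAs that the mitochondrial ribosome reads are encoded in mitochondrial DNA. Of these 13 genes 2 rose and 6 fell with IL-23 DNA in wild type, with a median log2 fold change of -0.31, and 6 rose and 1 fell in Mdl-1-/- ears under IL-23, with a median of 0.35. Their summed TMM-scaled level overlapped between groups, at 57080 to 65080 CPM in Mdl-1-/- IL-23 ears. It was 55670 to 63230 CPM in wild-type IL-23 ears and 53020 to 62090 CPM in wild-type GFP ears. As a plain share of all counts the 13 genes took 5.7% to 6.1% in Mdl-1-/- IL-23 ears. That share was 5.1% to 5.3% in wild-type IL-23 ears and 6.1% to 7.3% in wild-type GFP ears. The largest rises in wild type were those of mt-Co3 (0.59 ± 0.13 SE, adjusted p = 0.00161) and mt-Nd4 (0.36 ± 0.11 SE, adjusted p = 0.0114), and the largest falls those of mt-Nd6 (-1.04 ± 0.16 SE, adjusted p = 0.000114) and mt-Co1 (-0.80 ± 0.15 SE, adjusted p = 0.000628). In Mdl-1-/- ears mt-Nd6 (0.92 ± 0.16 SE, adjusted p = 0.00242) and mt-Co1 (0.89 ± 0.15 SE, adjusted p = 0.00237) rose and mt-Co3 fell (-0.42 ± 0.13 SE, adjusted p = 0.0313). Of nuclear genes of the respiratory chain 39 of 82 rose and 7 fell in wild type, and 1 rose and 18 fell in Mdl-1-/- ears under IL-23, with medians of 0.34 and -0.13. Of cytosolic ribosomal protein genes 33 of 83 rose and 9 fell in wild type, 21 rose and 4 fell in Mdl-1-/- ears under IL-23, and 51 rose and 0 fell in Mdl-1-/- IL-23 ears against GFP ears, with medians of 0.24, 0.19 and 0.42. Over all genes, 22.9% were called higher and 21.7% lower in wild type, and 7.58% and 10.1% in Mdl-1-/- ears under IL-23. In Mdl-1-/- IL-23 ears against GFP ears 10.2% were called higher and 6.93% lower. The differences between lists were not tested.

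Counts of some members are uncertain or missing. The last exon of Mrpl53 lies wholly within exons of Gm42688 on the same strand, and that of Mrps34 wholly opposite Mapk8ip3, and both genes had 0 counts in all 9 libraries. Mrps18b, with 17 counts in all, did not pass the filter: it had 1, 5 and 2 counts in Mdl-1-/- IL-23 ears, 0 in each wild-type IL-23 ear and 6, 2 and 1 in wild-type GFP ears. The row of its copy Gm13552 held 88.2% as many counts. For Mrps36, the pseudogene rows Mrps36-ps1 and Mrps36-ps2 held 29.9% and 18.1% as many. Mrpl10 shares 21.2% of its last exon with Gm11574 on the other strand, Mrpl12 17.0% with Gm16755 and Mrpl49 5.76% with Syvn1.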

How the data were processed

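The deposited values are raw gene counts per library from ear RNA of 9 libraries, whole numbers that the authors made with STAR 2.7.0a and featureCounts, per the submitters' processing notes. Those notes name build GRCh38.p6, a human name, although the rows carry mouse gene IDs; the sources used here name neither the annotation nor the strand or multimapping settings. The authors' deposited tables of edgeR log2 fold changes and p-values were used only to count shared calls.

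Symbols and positions were taken from GENCODE M21 on GRCm38. Counts were scaled by TMM and fitted over all 9 libraries with edgeR 4.0.16 in R 4.3.3 (robust quasi-likelihood test, 6 residual degrees of freedom), after a filter on low counts (minimum count 10, minimum total 15). That left 13807 genes, over which p-values were adjusted by Benjamini-Hochberg; a call is an adjusted p under 0.05, and "rose" and "fell" are used of calls. The scripts were tested on simulated data. Depth was 3776188 to 5605713 counts per library, so genes with few counts have large errors. Counts of every library pair of a group differed beyond sampling noise (4.60 to 19.0 chi-square units a gene).

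The members and all gene lists were chosen with earlier results of these data known. Named members are the 10 largest called changes in each direction and comparison, and the 3 Mrpl and 3 Mrps genes of highest mean CPM. Fixed genes of the stalk, exit tunnel, peptide release, small subunit and dual roles are named too. Genes named from other lists come from the 2 largest called changes of a list in each direction. No gene is named of the nuclear respiratory chain, the cytosolic ribosomal proteins and several marker lists. Mrps28, Mrps18b, Mrpl53, Mrps34, Mrpl57 and the smaller falls Mrps2, Mrpl17 and Mrpl35 in Mdl-1-/- ears were singled out after their values were seen. Shared sequence was searched with BLAST 2.17.0 over the last 300 bases of each transcript (at least 95% identity over 80 bases); a copy counts from 10% of a member's counts. Alternatives were other scalings, filters, thresholds, DESeq2 1.42.0 and voom in limma 3.58.1, a replicate block, and leaving out each library. The fits with library totals alone and the counts without members that share sequence were chosen after seeing the data.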

Additional observations from a re-analysis of the deposited data

How the results depend on the processing

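In wild-type ears the members' median log2 fold change for IL-23 over GFP was 0.31 with upper-quartile scaling and 0.064 with library totals alone, and 24 members were called with library totals and 23 at an adjusted p under 0.01. For Mdl-1-/- over wild-type ears under IL-23, library totals gave 7 called members and a median of -0.11, and the stricter threshold 3. For Mdl-1-/- IL-23 over wild-type GFP ears, the median was 0.051 with upper-quartile scaling and reversed to -0.10 with library totals, and the stricter threshold left 0 members. The cause was not tested. Leaving out 1 library gave 24 to 40 called members, 4622 to 6352 genes and medians of 0.40 to 0.56 for wild-type IL-23 over GFP. It gave 5 to 18 members and 1128 to 2802 genes for Mdl-1-/- over wild-type ears under IL-23. For Mdl-1-/- IL-23 over wild-type GFP ears it gave 0 to 6 members, 1340 to 2580 genes and medians of 0.12 to 0.26. The summed level is given with TMM, upper-quartile scaling, library totals and counts outside mitochondrially encoded genes, in that order. It was 1972, 1954, 1923 and 2190 CPM in Mdl-1-/- IL-23 ears. In wild-type IL-23 ears it was 2474, 2355, 2160 and 2370 CPM, and in wild-type GFP ears 1730, 1833, 2000 and 2326 CPM. The 34 members with a mean count under 100 had larger median standard errors (0.24) than the 41 deeper ones (0.17), and also smaller median changes. Of values for single members, 1594 kept their side of the threshold, 94 lost it and 15 gained it. Deviations of same-numbered libraries correlated at -0.09 to 0.23, and 7 of 18 correlated best with their own number. With 3 libraries in each group, this check cannot decide whether library numbers pair the samples. With a replicate block 39, 22 and 2 members were called in wild-type IL-23 over GFP, Mdl-1-/- over wild type under IL-23, and Mdl-1-/- IL-23 over GFP, from 6257, 2800 and 2682 genes. Without the block 38, 17 and 2 members were called, from 6169, 2439 and 2359 genes.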
